A study of Arabidopsis thaliana with 12 samples.

Results

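The circadian clock genes described here are 10 loci of *Arabidopsis thaliana*: LHY (AT1G01060), CCA1 (AT2G46830), PRR9 (AT2G46790), PRR7 (AT5G02810), PRR5 (AT5G24470), GI (AT1G22770), TOC1 (AT5G61380), ELF3 (AT2G25930), ELF4 (AT2G40080) and LUX (AT3G46640). They were chosen by locus from the deposited table, and each had 1 probe set, so that 10 of the 22746 probe sets other than controls belong to them. The data came from seedlings of ecotype Columbia. The eif3k mutant was 1 T-DNA line with an intronic insertion in the gene of eIF3k, which is a non-core part of translation initiation factor eIF3. Wild-type (WT) seedlings were its control. The aerial part of 11-day-old seedlings of both genotypes, grown on sucrose-containing agar medium, was separated on sucrose gradients into a polysomal (PL) and a non-polysomal (NP) pool. There were 3 replicates of each genotype and 12 Affymetrix ATH1 arrays in all. A supplementary figure of the study shows fewer eif3k replicates than these, and its caption does not say which. The design asks how the loss of eIF3k affects polysome loading. According to the labels all samples were grown in days of 16 h light and collected 4 h after light on, whereas the methods of the study state continuous light for the eif3k mutant. Which of these holds was not settled, and no collection time is given for single samples. From clock gene transcripts, the study judged its plants in continuous light to be entrained much like a ribosomal protein mutant grown with dark periods. It names no single samples for this.

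The plant clock is a network of transcriptional repressors that follow each other through the day. LHY and CCA1 are MYB-type factors that peak around dawn and repress genes expressed in the evening. The pseudo-response regulators PRR9, PRR7 and PRR5 are expressed in succession from morning to afternoon and repress LHY and CCA1. TOC1, a pseudo-response regulator of the evening, does the same at night. GI acts in the evening with the photoreceptor-like F-box protein ZTL and in the photoperiodic control of flowering. ELF3, ELF4 and LUX form the evening complex, a night-time repressor whose known targets include PRR9, PIF4 and PIF5. LHY, CCA1, PRR9 and PRR7 are called morning genes here, and TOC1, GI, ELF3, ELF4 and LUX evening genes, while PRR5 was kept apart. Sequences of the probe sets, promoters and proteins were not used here.

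All values are log2 signals of a probe set. The lowest deposited log2 signal, 2.33, acted as a floor on every array. Signals of different probe sets are not on a common scale, so signals were read within a gene across samples. Where genes are ranked, the ranks are of differences within a gene, between samples or fractions. Medians over genes were compared between samples or genotypes. In these data fewer cells expressing a gene and less RNA per cell cannot be told apart. The mutation was checked first. The eIF3k probe set read 7.17, 7.06 and 7.63 in eif3k PL, against 8.61, 8.89 and 7.28 in WT PL. In NP it read 7.30, 7.93 and 8.05 in eif3k and 9.26, 9.45 and 9.01 in WT. The eif3k samples were thus all below the WT samples in NP, but not in PL, where WT replicate 3 lay within the eif3k range. Where the probes lie relative to the insertion is not known.

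The arrays were made on 2 days. Replicates 1 and 2 of both genotypes form array batch 1 and replicate 3 of both forms array batch 2. The PL array of WT replicate 3 stood apart from the others, as 29.2% of the 7182 probe sets with a mean log2 signal of at least 5 lay 1 or more outside the range of the other 5 PL samples on it. All 5 leaf markers measured read between 10.94 and 14.9 on every array. Of the 72 readings of the 6 root markers, 68 were within 0.1 of the floor, and the highest was 3.51. Markers of the labelled aerial tissue were therefore high and root markers at or near the floor.

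Among the clock genes a different sample stood apart, eif3k replicate 3. In this sample the morning genes PRR9 and PRR7 were below the other 5 samples in both fractions. The evening genes TOC1, ELF3, ELF4 and LUX were above the other 5 samples in both. LHY lay inside the range of the other 5 samples. GI, an evening gene, was below this range in both fractions, but in PL only at 3.36 against a lowest value of 3.43, both dim. A log2 signal at least 1 outside the range of the other 5 samples was found for 8 of the 10 clock genes in NP of eif3k replicate 3. Of these, TOC1, ELF3, ELF4 and LUX were above the range and CCA1, PRR9, PRR7 and GI below it. Over all probe sets the share on this array was 2.27%, with 1.37% above and 0.897% below. It was 4.59% of the 7182 brighter probe sets, those with a mean of at least 5. In PL of the same sample 5 of 10 were apart, against 1.54% of all probe sets (1.11% above and 0.431% below) and 2.38% of the brighter ones. TOC1, ELF3, ELF4 and LUX were above the range and PRR9 was below it. With the doubtful WT replicate 3 left out of the range, the count was again 8 in NP (background 2.92%). In PL it became 7 (background 2.47%), where CCA1 and PRR7 then also lay at least 1 below the range. In every other sample and fraction the count was 0, except for CCA1 in PL of WT replicate 3. The share of all probe sets apart was 16.1% on that PL array and 1.56% on the NP array of WT replicate 3, and 0.0132% to 0.0528% on the arrays of replicates 1 and 2. This sample was singled out after its values were seen, so the counts are a description and were not tested. Its PL and NP arrays came from the same replicate and are not independent of each other.

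**Figure D1:**
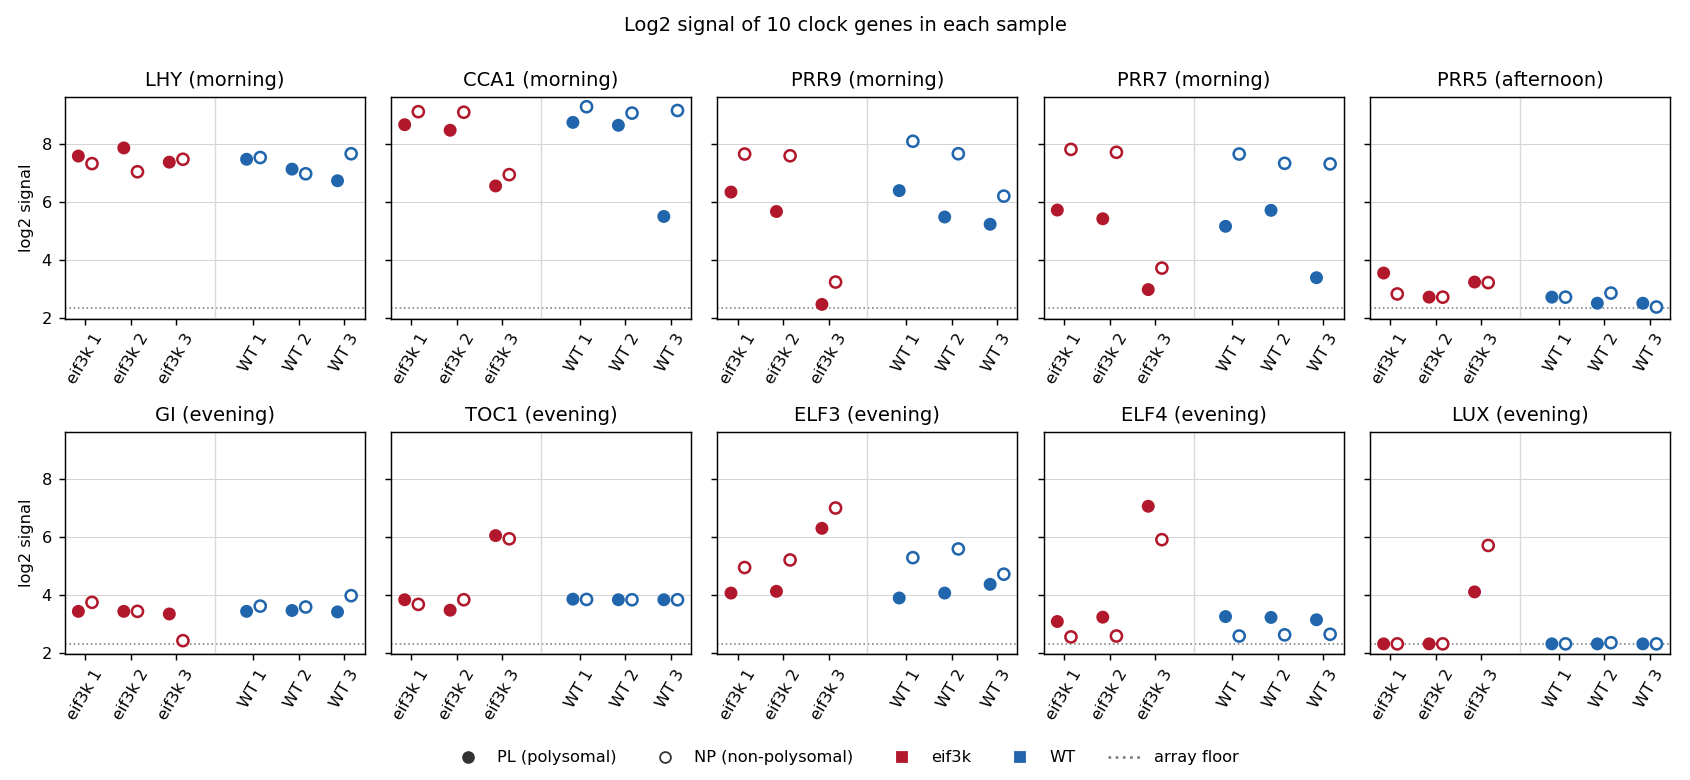
Log2 signal (vertical axis) of the 10 clock genes in the 6 samples (horizontal axis), with PL as filled and NP as open circles, eif3k in red and WT in blue, and the floor of 2.33 as a dotted line. In eif3k replicate 3 PRR9 and PRR7 lie at 3.72 or below in both fractions, while TOC1, ELF3, ELF4 and LUX lie above all other samples.

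LHY and CCA1 are partly redundant dawn factors, yet they differed in this sample. LHY read 7.58, 7.86 and 7.37 in PL of eif3k replicates 1, 2 and 3, against 7.47, 7.13 and 6.73 in PL of WT replicates 1, 2 and 3. The NP signals were 7.32, 7.04 and 7.47 in eif3k and 7.53, 6.97 and 7.66 in WT. LHY in eif3k replicate 3 therefore lay inside the range of the other samples in both fractions. CCA1 read 8.66, 8.47 and 6.55 in eif3k PL, against 8.74, 8.64 and 5.50 in WT PL. Its NP signals were 9.11, 9.09 and 6.94 in eif3k and 9.28, 9.06 and 9.15 in WT. The NP signal of CCA1 in eif3k replicate 3 was thus 4.5-fold below the median of the other 5 samples, which differed among themselves by at most 0.22. In PL both replicate 3 samples were low, and the lowest was WT replicate 3.

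The 2 pseudo-response regulators of the morning had the largest losses among the clock genes. PRR9, the first of the succession, read 6.34, 5.67 and 2.47 in eif3k PL and 6.39, 5.48 and 5.23 in WT PL. In the NP fraction it had 7.65, 7.59 and 3.24 in eif3k, against 8.09, 7.66 and 6.20 in WT. Relative to the median of the other 5 samples, PRR9 in eif3k replicate 3 was 9.19-fold lower in PL and 21.3-fold lower in NP. Its PL signal of 2.47 there was close to the floor of 2.33, so the PL difference may be larger. The PRR9 probe set, like that of LUX, belongs to the class that may hybridize to more than 1 transcript. PRR7, which follows PRR9, read 5.72, 5.42 and 2.98 in eif3k PL, against 5.16, 5.71 and 3.39 in WT PL. NP signals of this gene were 7.81, 7.71 and 3.72 in eif3k and 7.65, 7.33 and 7.31 in WT. In NP it was 15.2-fold below the median of the others, with no overlap, whereas in PL WT replicate 3 was almost as low. PRR9 and CCA1 are near neighbours on chromosome 2, with 3 protein-coding genes between them in the TAIR10.1 annotation.

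PRR5, the pseudo-response regulator of the afternoon, was dim in all samples. It read 3.55, 2.72 and 3.24 in eif3k PL and 2.72, 2.51 and 2.51 in WT PL. In NP, the values were 2.83, 2.72 and 3.22 in eif3k, against 2.72, 2.86 and 2.38 in WT. The genotypes overlapped in NP, and in PL only a tie at 2.72 linked their ranges.

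Of the evening genes, the members of the evening complex were all highest in eif3k replicate 3. ELF4 read 3.10, 3.25 and 7.07 in eif3k PL, against 3.27, 3.24 and 3.16 in WT PL. In NP it read 2.57, 2.60 and 5.92 in eif3k and 2.60, 2.64 and 2.66 in WT. The other 5 samples lay within 0.17 of each other in PL and within 0.09 in NP. Against their medians, eif3k replicate 3 was 14.2-fold higher in PL and 9.99-fold higher in NP. Those medians were dim, so the ratios may understate the difference. LUX, the DNA-binding subunit of the complex, was at or within 0.04 of the floor in every sample but this one. It read 4.12 in PL and 5.72 in NP of eif3k replicate 3, which is 1.79 and 3.39 above the median of the others in log2. Since those lay at the floor, the difference may be larger than these values. ELF3, the bridging subunit, read 4.08, 4.14 and 6.31 in eif3k PL and 3.91, 4.08 and 4.38 in WT PL. The NP signals were 4.96, 5.22 and 7.01 in eif3k, against 5.30, 5.60 and 4.73 in WT. ELF3 was thus 4.69-fold above the median of the others in PL and 3.46-fold above it in NP.

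TOC1 followed the evening complex and GI did not. TOC1 read 3.85, 3.49 and 6.06 in eif3k PL, against 3.87, 3.85 and 3.85 in WT PL. Its NP signals were 3.69, 3.85 and 5.95 in eif3k and 3.86, 3.85 and 3.85 in WT. The gain over the median of the others was 4.63-fold in PL and 4.29-fold in NP. The other samples were dim, so these ratios may understate it. GI read 3.45, 3.45 and 3.36 in eif3k PL and 3.45, 3.48 and 3.43 in WT PL. In the NP fraction it had 3.76, 3.45 and 2.44 in eif3k, against 3.63, 3.60 and 3.99 in WT. GI was dim throughout, and its NP signal in eif3k replicate 3 was 2.28-fold below the median of the others. This NP gap was no longer 1 or more after quantile normalization, which left 7 of 10 genes apart in NP.

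Grouped by time of day, the genes showed the same contrast between samples. For each gene, the mean of replicates 1 and 2 of both genotypes was subtracted, and the median over each group was taken. In PL of eif3k replicates 1, 2 and 3 the morning median was 0.14, -0.12 and -2.30, and that of WT replicates 1, 2 and 3 was 0.04, -0.18 and -1.45. The evening median in PL was 0.00, 0.00 and 2.26 in eif3k, against 0.00, 0.03 and 0.00 in WT. In NP the morning median was 0.04, -0.10 and -3.05 in eif3k and 0.23, -0.17 and -0.15 in WT. The evening median in NP was -0.03, -0.01 and 2.14 in eif3k, against 0.02, 0.04 and 0.04 in WT. A low morning median together with a high evening median therefore appeared in eif3k replicate 3 and not in WT replicate 3, the other sample of array batch 2. In WT replicate 3 the morning median was low in PL only, although PRR9 was also low in NP (-1.55), and the evening median stayed near 0.

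**Figure D2:**
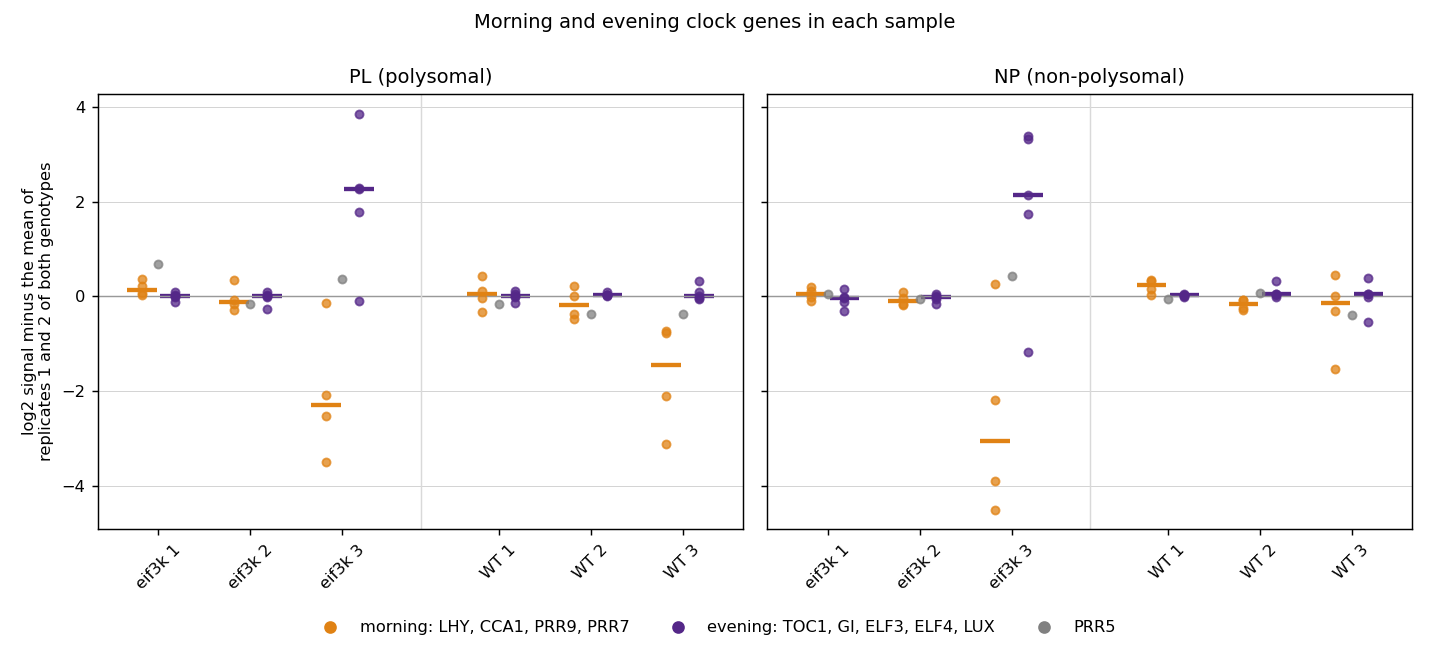
Log2 signal of each clock gene minus its mean over replicates 1 and 2 of both genotypes (vertical axis) in the 6 samples (horizontal axis), for PL on the left and NP on the right. Points are genes and bars are group medians. In eif3k replicate 3 the morning median is -2.30 in PL and -3.05 in NP and the evening median 2.26 and 2.14, while in WT replicate 3 the morning median is -1.45 in PL and -0.15 in NP.

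With replicates averaged, no clock gene passed the test of a difference between the genotypes. For signal level, log2 PL and log2 NP of a sample were averaged. Differences were tested with limma. A call needed an adjusted p under 0.05 (Benjamini-Hochberg, over all probe sets) together with a 2-fold change, which is 1 on the log2 scale. In signal level 0 of 10 clock genes were called, as were 0.0044% of all probe sets. None of the 10 reached an unadjusted p under 0.05 in limma either, as 664 of all probe sets (2.92%) did, and the smallest adjusted p was 0.818. Their median difference of eif3k minus WT was 0.31, with 6 above 0 and 4 below, beside 0.00 over all probe sets and 0.15 over those with a mean of at least 5. In PL and in NP 0 of 10 were called, against 0% of all probe sets in both, although 436 probe sets (1.92%) in PL and 721 (3.17%) in NP reached an unadjusted p under 0.05 in limma, with 0 clock genes among them. The clock genes' median difference was 0.54 in PL and 0.08 in NP. In no measure did the eif3k and WT samples of a clock gene separate without overlap, which they did for 7.56% of all probe sets in signal level, 6.71% in TL, 6.13% in PL and 6.3% in NP.

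The intervals of these differences were wide for the genes in which eif3k replicate 3 stood apart. ELF4 averaged 4.08 ± 2.09 in eif3k and 2.93 ± 0.02 in WT (SD, n = 3 each), a difference of 1.16 with a 95% interval from -1.84 to 4.15. PRR9 averaged 5.49 ± 2.29 in eif3k and 6.51 ± 0.76 in WT, and its difference was -1.01 (95% interval -4.48 to 2.45). LHY, with 7.44 ± 0.02 in eif3k and 7.25 ± 0.23 in WT, had the narrowest interval of the bright clock genes, 0.19 (-0.14 to 0.52). Within array batch 1 the difference was between -0.14 and 0.25 for all 10 genes. Within array batch 2, which holds 1 sample of each genotype, it was 3.58 for ELF4, 2.59 for LUX, 2.15 for TOC1, 2.11 for ELF3, 0.79 for PRR5, 0.22 for LHY, -0.58 for CCA1, -0.81 for GI and -2.86 for PRR9, and PRR7 also lay below 0. Without eif3k replicate 3 the signs of CCA1, PRR9, PRR7, TOC1, ELF3, ELF4 and LUX turned.

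**Figure D3:**
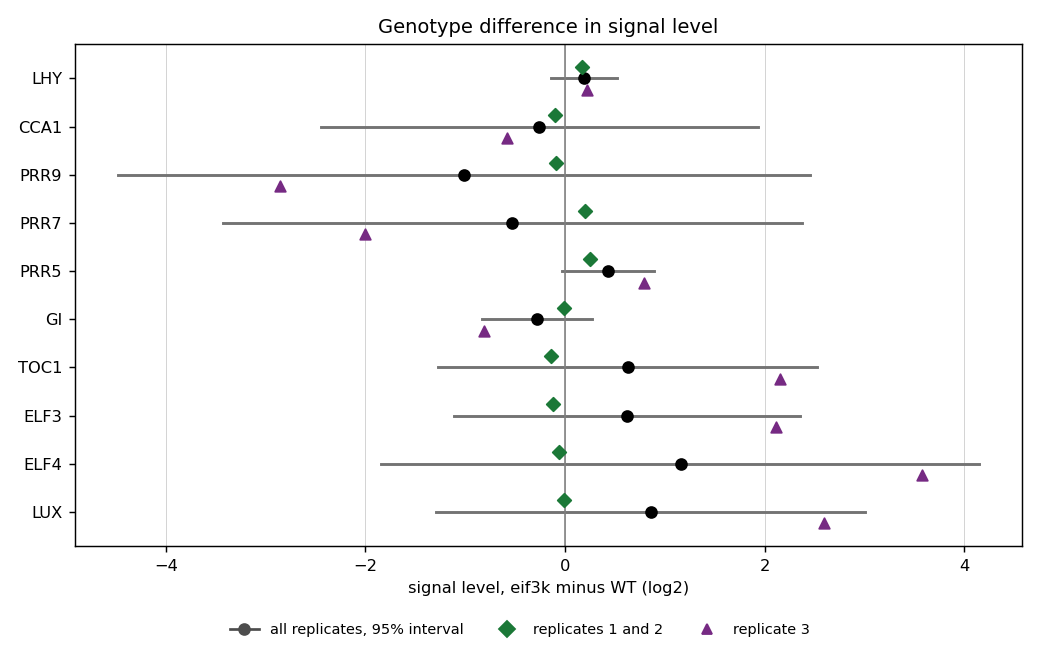
Difference in signal level between eif3k and WT (log2, horizontal axis) for each clock gene. Black circles are the means over 3 replicates with limma's 95% interval, green diamonds the difference within replicates 1 and 2, and purple triangles the difference within replicate 3. The diamonds lie between -0.14 and 0.25, whereas the triangles reach -2.86 for PRR9 and 3.58 for ELF4.

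The translation state (TL) was obtained per replicate by subtracting the log2 NP signal from the log2 PL signal. As the fractions were normalized to each other, a TL of 0 is no equal split. CCA1, PRR9, PRR7 and ELF3 had a TL below 0 in all 6 samples, as did 12.7% of all probe sets and 25.5% of those with a mean of at least 5. ELF4 had a TL above 0 in all 6 samples, as did 9.18% of all probe sets and 19.3% of the brighter ones. PRR7 had the lowest mean TL of the 10 genes in both genotypes, though not in every sample, with -2.09, -2.29 and -0.74 in eif3k and -2.49, -1.62 and -3.92 in WT. PRR9 had -1.31, -1.92 and -0.77 in eif3k, against -1.70, -2.18 and -0.97 in WT. In eif3k replicate 3 the PL signals of both genes were close to the floor, which limits how low their TL could be.

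TL of the 3 evening complex mRNAs differed in eif3k replicate 3, a single sample. ELF3 had a TL of -0.88, -1.08 and -0.70 in eif3k, against -1.39, -1.52 and -0.35 in WT. For ELF4 it was 0.53, 0.65 and 1.15 in eif3k and 0.67, 0.60 and 0.50 in WT. Outside eif3k replicate 3 the ELF4 signals were at most 3.27 in PL and 2.66 in NP, so TL there rests on dim signals. LUX was above the floor in both fractions of eif3k replicate 3 alone, where its TL was -1.60. In eif3k replicate 3, the sample in which the signals of all 3 mRNAs were highest, TL was thus above 0 for ELF4 and below 0 for ELF3 and LUX. The TL of ELF3 in this sample lay inside the range of the other samples.

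The dawn factors had a TL nearer to 0, apart from 1 sample. CCA1 had -0.45, -0.62 and -0.39 in eif3k, against -0.54, -0.42 and -3.65 in WT. LHY had 0.26, 0.82 and -0.10 in eif3k and -0.06, 0.16 and -0.93 in WT. The lowest value of both genes was that of WT replicate 3, whose PL array stood apart. TOC1 remained between -0.36 and 0.16 in all 6 samples, including eif3k replicate 3 with its higher signal. In the other samples TOC1 was dim, at most 3.87 in PL and 3.86 in NP, so TL there is not informative. PRR5 lay between -0.35 and 0.72 and GI between -0.56 and 0.92, both with dim signals.

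**Figure D4:**
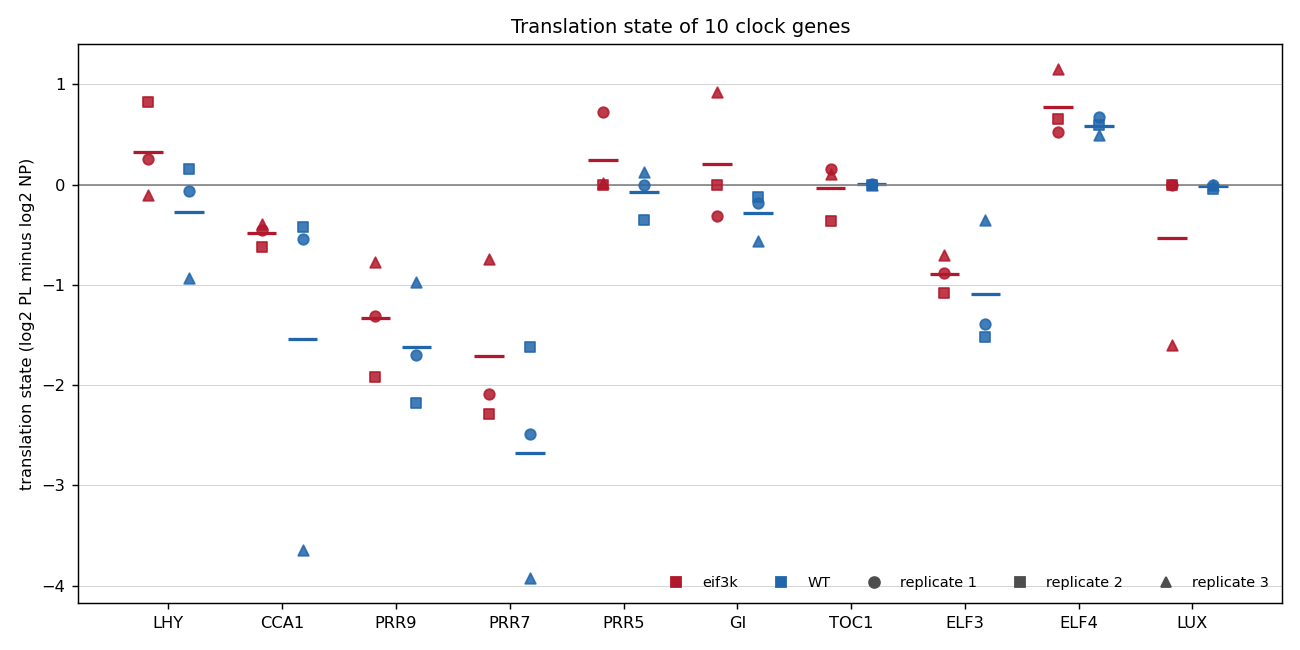
Translation state (log2 PL minus log2 NP, vertical axis) of the 10 clock genes (horizontal axis), eif3k in red to the left of WT in blue, with circles, squares and triangles for replicates 1, 2 and 3 and bars for genotype means. PRR9, PRR7 and ELF3 lie below 0 and ELF4 above 0 in all 6 samples, and WT replicate 3 reaches -3.65 for CCA1 and -3.92 for PRR7.

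Tested against 0 in limma within each genotype, 0 of 10 clock genes were called in eif3k, against 4.73% of all probe sets, and 0 of 10 in WT, against 4.84%. At an unadjusted p under 0.05 there were 4 in each genotype, PRR9, PRR7, ELF3 and ELF4, where the share of all probe sets was 22.3% in eif3k and 20.8% in WT. ELF4 in eif3k had an adjusted p of 0.0446, but its mean TL of 0.78 was below the minimum change. Mean TL was -1.71 ± 0.84 in eif3k and -2.68 ± 1.16 in WT for PRR7, and -1.33 ± 0.58 in eif3k and -1.62 ± 0.61 in WT for PRR9 (SD, n = 3 each). Both genes were called in both genotypes when probe sets with a mean log2 signal under 5 were left out, with adjusted p from limma of 0.0239 in eif3k and 0.00483 in WT for PRR7, and 0.0135 in eif3k and 0.00668 in WT for PRR9. In that setting 1813 of all 7182 probe sets tested were called in eif3k and 1692 in WT. ELF3 was called in WT once WT replicate 3 was left out, with a mean TL of -1.46 and an adjusted p of 0.0217 in limma. In that setting 1548 of all 22746 probe sets were called in WT, against 1100 with all samples.

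Between the genotypes, 0 of 10 clock genes were called for TL by the same rule, and 0% of all probe sets passed it. At an unadjusted p under 0.05 limma gave 612 of all probe sets (2.69%), and the interaction of genotype and fraction over the 12 arrays gave 427, again with 0 calls. No clock gene reached an unadjusted p under 0.05 in limma, and the smallest was 0.198, for LHY. The median difference of the 10 genes was 0.30, with 8 above 0 and 2 below, beside 0.00 over all probe sets and 0.19 over the brighter ones. A change of at least 1 of one sign in all 3 same-numbered pairs was found for 0 of 10, against 0.0264% of all probe sets. The largest differences were those of CCA1 with 1.05 (95% interval -1.58 to 3.68) and PRR7 with 0.97 (-1.09 to 3.03). Without WT replicate 3 they became -0.01 for CCA1 and 0.35 for PRR7. For ELF4 the difference was 0.19 (-0.30 to 0.67).

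Other components of the clock also stood apart in eif3k replicate 3, most of them with low signals. The list held 24 genes, 22 of them on the array. In NP of eif3k replicate 3, LNK1, LNK2, LNK3, LNK4 and PRR3 lay at least 1 outside the other 5 samples. This is 5 of 22 (1 higher and 4 lower) beside 2.27% of all probe sets and 4.59% of the brighter ones. In PL it was 2 of 22, LNK4 and ELF4-L2, both lower, beside 1.54% of all probe sets and 2.38% of the brighter ones. LNK1 to LNK4 are a family of transcriptional coactivators expressed in the morning, and all 4 were low. LNK2 read 6.33 in PL and 8.24 in NP of eif3k replicate 3, 6.63-fold and 8.46-fold below the medians of the others. In PL, however, WT replicate 3 read 6.35. LNK4 read 7.67, 7.82 and 5.37 in eif3k PL, against 7.66, 7.29 and 7.09 in WT PL, and was low in eif3k replicate 3 alone. PRR3, an evening member of the TOC1 family, read 5.22 in NP of this sample and between 2.35 and 2.37 in NP of the others. In PL it read 4.10 in eif3k replicate 3 but 4.29 in WT replicate 3, and 2.35 in the other samples. ZTL, the F-box partner of GI that is known for clock control at the protein level, lay inside the range of the other samples in NP. So did RVE4, at 10.49 against 10.05 to 11.17 in the others, and FKF1, at 7.93 against 7.17 to 8.31.

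Clock outputs were also split, and the gene with the largest gap of all those listed was among them. In NP of eif3k replicate 3, 7 of 16 lay at least 1 outside the other samples, beside 2.27% of all probe sets and 4.59% of the brighter ones. RVE2 and GRP7 were above and RVE7, CDF3, COL2, PIF4 and PIF5 below. In PL it was 5 of 16 beside 1.54% of all probe sets and 2.38% of the brighter ones, with RVE2 and GRP7 above and CDF3, PIF4 and PIF5 below. RVE2, a MYB-like factor related to CCA1, read 2.53, 2.58 and 7.42 in eif3k PL and 2.58 in all 3 samples of WT PL. NP signals of this gene were 3.54, 3.76 and 9.53 in eif3k, against 3.50, 2.72 and 3.60 in WT. This is 63.6-fold above the median of the others in NP. In PL the other samples were close to the floor of 2.33, so that the ratio of 28.6-fold to their median may understate the difference. GRP7, a glycine-rich RNA-binding protein of a clock-driven feedback loop with an evening peak, read 9.58 in PL and 9.87 in NP of this sample, 13.2-fold and 17.5-fold above the medians of the others. PIF4 and PIF5, bHLH factors that promote growth at the end of the night, read 3.93 and 6.60 in NP, against at least 6.16 and 9.24 in the other samples. CDF3, a DOF factor of the group that represses CO, was 5.58-fold lower in PL and 6.23-fold lower in NP. These genes outside the 10 were singled out after their values were seen, and they were not grouped by time of day. Of the 10 photoreceptor genes, PHOT2 alone was apart in NP, at 8.17 against a lowest value of 9.22 in the others.

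**Figure D5:**
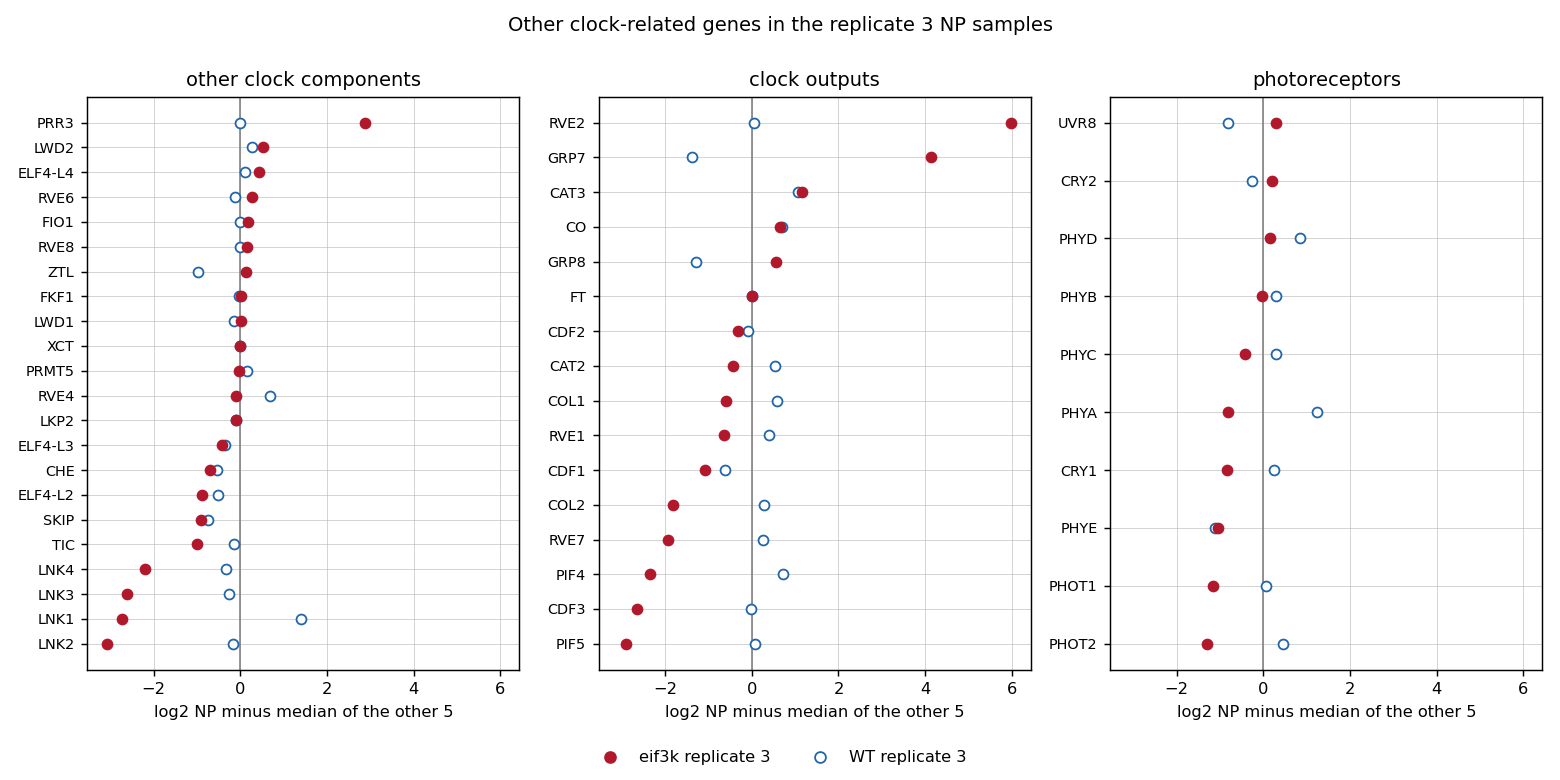
Log2 NP signal of a replicate 3 sample minus the median of the other 5 samples (horizontal axis) for genes of 3 further lists (rows), with eif3k replicate 3 in filled red and WT replicate 3 in open blue circles. RVE2, GRP7 and PRR3 lie far to the right and LNK1 to LNK4, PIF4, PIF5 and CDF3 to the left in eif3k replicate 3, while those genes lie between -1.39 and 1.39 in WT replicate 3.

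By the genotype tests in limma, 0 of the 22 other components, 0 of the 16 outputs and 0 of the 10 photoreceptors were called in TL, signal level, PL or NP. The smallest unadjusted p in the difference of TL were those of CRY2 with 0.0497, LWD2 with 0.0769 and GRP8 with 0.0922. Within the genotypes some were called for TL against 0. In eif3k they were 3 of the 22 other components and 1 of the 16 outputs, beside 4.73% of all probe sets, and in WT 4 of 22 and 2 of 16, beside 4.84%. LNK4 was low in both, with -1.23 in eif3k and -1.43 in WT. So were SKIP, a splicing factor needed for clock function, with -1.77 in eif3k and -1.79 in WT, and ELF4-L4, with -1.80 in eif3k and -1.26 in WT. GRP8, the close relative of GRP7, was high in both, with 1.01 in eif3k and 1.38 in WT. FKF1, a blue-light receptor of the ZTL family, had -2.06 in WT, where it was called, and -1.96 in eif3k, where it was not, and PIF5 had -1.91 in WT, also called, and -1.45 in eif3k. Each of these calls was lost when some single replicates were left out. Over all 22746 probe sets, calls for TL in WT fell from 1100 to 30 without WT replicate 2, but rose to 1548 without WT replicate 3. For TL in eif3k they fell from 1075 to 41 without eif3k replicate 2 and rose to 1875 without WT replicate 3.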

How the data were processed

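Polysomal and non-polysomal RNA of the aerial part of eif3k and WT seedlings was measured on 12 ATH1 arrays. The values deposited by the authors are log2 signals of probe sets after their background correction and normalization. The submitters' processing notes name GCRMA, whereas the study's methods name Robust Multi-array Average. For its version and the probe set definitions or genome build, the sources used here give nothing. The deposited TL columns equalled log2 PL minus log2 NP within 0.01. Array data carry no read depth, and 3 replicates per group limit precision. The design text calls the replicates biological.

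Control probe sets (64) were left out. Genotypes were compared with limma 3.58.1 in R 4.3.3 (lmFit, eBayes) in two-sided tests without a block. P-values were adjusted over 22746 probe sets by Benjamini-Hochberg. The code was tested on simulated data. Figures were drawn with matplotlib 3.10.9. The 10 genes and all lists were chosen with earlier results of these data known. All 10 were named. Of the other lists, those called for TL and the 3 with the smallest p in the TL difference were named. Further genes of these lists, among them those apart in eif3k replicate 3, were named after their values were seen. In addition, the 5 probe sets most alike to LHY and CCA1 and to the evening genes were named. Deviations of eif3k and WT samples with the same number correlated across probe sets at 0.134 to 0.268 (12 values over TL, level, PL and NP), all above 0.1, so a fit with the replicate block was run as an alternative, and the p-values and intervals given do not pair the replicates unless the block is named. Other alternatives were the array batch as a block, quantile normalization, omission of dim probe sets or of single replicates, and an interaction model.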

Additional observations from a re-analysis of the deposited data

How the results depend on the processing

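No clock gene was called between the genotypes in any alternative. With the replicate block the smallest adjusted p of a clock gene was 0.765 for TL, 0.753 for PL and 0.831 for NP, and pairing or blocking by array batch changed none of their calls: 0 of 10 remained. Omission of probe sets with a mean under 5 left 4 clock genes and gave 2 calls for TL in eif3k and 2 in WT, both PRR9 and PRR7. The number tested was then 7182, of which 1813 were called in eif3k and 1692 in WT. Leaving out single replicates gave 0 to 1 call for TL in WT, that of ELF3 without WT replicate 3 or without replicate 3 of both genotypes. Of all 22746 probe sets, 1548 were called without WT replicate 3 and 874 without replicate 3 of both, against 1100 with all samples. Quantile normalization turned 2 signs close to 0, with 0.02 for the PL difference of GI and 0.01 for TL of TOC1 in eif3k. In signal level, the morning minus the evening median differed by -1.20 between eif3k and WT, but by 0.32 without eif3k replicate 3 and by 0.05 without replicate 3 of both genotypes. For TL this difference was 0.53, but 0.11 without WT replicate 3 and -0.02 without replicate 3 of both. The series' second value table held the same values and gave no alternative.
Of 714 re-computed values of single clock genes, 646 kept sign and side of the threshold, 62 turned sign and 6 became calls, and 46 of those that turned left out replicate 3 of one or both genotypes. None of the turned values was called before or after. Over all settings without 1 or 2 replicates, the values with a changed sign or call ranged as follows. The TL difference ranged from -0.06 to 1.68 for CCA1, -0.14 to 1.79 for PRR7, -0.13 to 0.13 for TOC1, -0.02 to 0.57 for ELF3, -0.04 to 0.35 for ELF4 and -0.80 to 0.02 for LUX. The signal level difference ranged from -0.79 to 0.44 for CCA1, -1.77 to 0.30 for PRR9, -1.13 to 0.57 for PRR7, -0.14 to 1.03 for TOC1, -0.12 to 1.01 for ELF3, -0.06 to 1.78 for ELF4 and -0.01 to 1.29 for LUX. The PL difference ranged from -0.80 to 0.94 for CCA1, -1.63 to 0.30 for PRR9, -0.73 to 0.82 for PRR7, -0.19 to 1.10 for TOC1, -0.01 to 1.10 for ELF3 and -0.08 to 1.96 for ELF4. The NP difference ranged from -0.32 to 0.03 for LHY, -1.90 to 0.30 for PRR9, -1.72 to 0.33 for PRR7, -0.01 to 0.47 for PRR5, -0.09 to 1.05 for TOC1, -0.36 to 0.97 for ELF3, -0.05 to 1.63 for ELF4 and -0.02 to 1.70 for LUX. TL in eif3k ranged from -0.12 to 0.14 for TOC1 and -0.15 to 0.46 for GI. TL in WT ranged from -0.49 to 0.05 for LHY, -0.17 to 0.07 for PRR5 and -1.46 to -0.87 for ELF3.
The other genes called for TL kept their sign but lost calls, with TL in eif3k from -1.99 to -1.59 for ELF4-L4, 0.84 to 1.15 for GRP8, -1.25 to -1.21 for LNK4 and -2.03 to -1.60 for SKIP, and TL in WT from -1.45 to -1.12 for ELF4-L4, -2.54 to -1.75 for FKF1, 1.35 to 1.41 for GRP8, -1.56 to -1.29 for LNK4, -2.04 to -1.77 for PIF5 and -1.94 to -1.50 for SKIP. Without replicate 1 of both genotypes, or replicate 2 of both, 0 of all probe sets were called for TL in either genotype.
Limits: 6 of the 10 clock genes had a mean log2 signal under 5, and near the floor neither a decrease nor a TL can be measured. With 3 replicates, array batch 2 holds 1 sample per genotype, so that genotype and sample cannot be told apart there. The part of other differences between samples in the values of eif3k replicate 3 was not tested.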

Other observations

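Among the 7116 probe sets outside the clock genes that had a mean log2 signal of at least 5 and 1 locus, those most like the mean of LHY and CCA1 over the 12 arrays included genes of chlorophyll synthesis. Pearson's r was 0.986 for CH1 (chlorophyllide a oxygenase), 0.985 for SQE3 (squalene epoxidase), 0.979 for CYP706A5, 0.977 for AT5G62010 and 0.977 for GUN5 (the H subunit of magnesium chelatase). The 12 arrays share 6 samples, and the pattern turned on 3 low arrays. In eif3k replicate 3 the low mean came from CCA1, as LHY lay inside the range of the other samples there. Of the low arrays, 1 was the PL array of WT replicate 3, which stood apart. CH1 read 7.10 in PL and 7.53 in NP of eif3k replicate 3, 5.04 in PL of WT replicate 3, and between 8.88 and 9.76 elsewhere.

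Those most like the mean of the 5 evening genes were CHL (a chloroplast lipocalin, r = 0.97), PS2 (0.96), PAP12 (0.938), PAP17 (0.933) and PFA-DSP4 (0.93). PS2 is a phosphatase and PAP17 an acid phosphatase, both known for induction under phosphate starvation. PS2 read 4.98, 4.06 and 8.36 in eif3k PL, against 5.47, 4.99 and 4.87 in WT PL. In NP it read 5.21, 4.55 and 8.46 in eif3k and 5.11, 5.13 and 5.73 in WT. PAP17 read 9.52 in PL and 9.10 in NP of eif3k replicate 3, and between 6.87 and 7.56 on the other 10 arrays. These probe sets were high in eif3k replicate 3 alone, and these correlations rest on that sample.

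In eif3k the photoreceptor genes differed in the sign of their TL, and genes were not tested against each other. PHYA, PHYB, CRY1, CRY2, PHOT1 and UVR8 had a TL above 0 in all 3 eif3k samples. Each was below 0 in WT replicate 3, whose PL array stood apart. In WT replicates 1 and 2 TL was 0.83 and 1.06 for PHYA, 1.10 and 0.00 for PHYB, and -0.09 and 0.07 for CRY1. It was 0.05 and -0.02 for CRY2, 0.23 and 0.23 for PHOT1, and 0.84 and 0.54 for UVR8. PHYD was also above 0 in all 3 eif3k samples, but its TL in WT replicate 3 was 0.56. PHYC had a TL of -0.98, -0.47 and -0.47 in eif3k, against -0.77, -1.07 and -0.65 in WT, and PHYE had -1.24, -1.59 and -0.33 in eif3k and -1.43, -1.84 and -1.10 in WT. None was called in limma in either genotype, although PHYC in WT had an adjusted p of 0.0447 at a mean TL of -0.83.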
